A study of Homo sapiens with 4 samples.

Results

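The genes described here encode the nuclear subunits of the mitochondrial respiratory chain. They were chosen by symbol alone from the deposited gene table, as the subunits of NADH dehydrogenase (the NDUFA, NDUFB, NDUFC, NDUFS and NDUFV genes), succinate dehydrogenase (SDHA to SDHD), the cytochrome bc1 complex (the UQCR genes and CYC1), cytochrome c oxidase (the COX4 to COX8 genes) and ATP synthase (the ATP5 genes), with pseudogene symbols left out. The rule found 87 of the 61806 genes, of which 37 belong to complex I, 4 to complex II, 10 to complex III, 17 to complex IV and 19 to complex V. JJ012, a human chondrosarcoma cell line, and 143B, a human osteosarcoma cell line, were kept in suspension, either untreated or with 1 mM melatonin for 72 h. The treated libraries were told from the untreated by the suffix T in the table, read as treated, and every direction given here rests on that reading. There was 1 poly(A) RNA library for each of the 4 conditions, so that no spread between cultures could be estimated and no p-value is given within a cell line. Each line is a single established culture, and the effect of detachment itself was not part of the comparison, since all 4 libraries came from detached cells. The comparisons ask how melatonin altered the RNA of bone cancer cells without attachment, in each line and between the lines.

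The respiratory chain passes electrons from NADH and succinate through complexes I to IV to oxygen and pumps protons across the inner mitochondrial membrane, and complex V uses that gradient to make ATP. Complexes I, III, IV and V are built from subunits encoded in both the nuclear and the mitochondrial genome, while complex II is entirely nuclear. A small set of core subunits carries the cofactors and the catalytic sites, and many small accessory subunits surround them. Cells that lose attachment are known to depend on the balance between glycolysis and respiration.

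The libraries held between 15889564 and 19218343 counts, and between 13198 and 14477 genes per library reached 1 FPKM, which scales the counts by the exonic size of the gene and by the library total. The share of counts from mitochondrial genes was 6.78% in untreated JJ012, 4.35% in melatonin-treated JJ012, 1.635% in untreated 143B and 2.46% in melatonin-treated 143B. Few of the listed markers of the tissues of origin reached 1 FPKM. The cartilage collagen COL2A1 had 0 counts in both JJ012 libraries, where 2 and 1 of 7 chondrocyte markers reached 1 FPKM. SOX9 was among them, at 15.06 and 6.16 FPKM in JJ012 and 15.48 and 12.09 FPKM in 143B. In 143B, the osteoblast factor SP7 had 0 and 1 counts. There 2 of 7 osteoblast markers reached 1 FPKM in each library, with RUNX2 at 4.28 and 2.75 FPKM. The 7 osteoblast markers summed to 6.97 and 5.07 FPKM in 143B. In JJ012 they summed to 94.74 and 68.2 FPKM, most of it SPP1 at 79.39 and 64.5 FPKM. The 4 blood cell markers summed to 13.17 FPKM in the JJ012 control and 5.45 FPKM after melatonin, nearly all of it CD3E and CD68, and to 0.83 and 1.2 FPKM in 143B, with HBB at 0 in all 4 libraries. The 3 endothelial markers summed to between 0.93 and 2.4 FPKM, and the 3 epithelial markers to between 5.62 and 11.04 FPKM. What part these lists had in the results below was not tested.

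Promoters of the respiratory genes were read first, because nuclear subunits are known to share binding sites of a few transcription factors. RefSeq promoter windows of 300 bases on GRCh38.p14, from 250 bases before to 50 after the start, matched 69 of the 87 genes. The 4 windows printed here are the last 120 bases before the start, shown 5′ to 3′ on the strand of the gene. They were picked from the 8 such windows that overlap no gene of the table because they hold the letters CCGGAAG, and the other 4, of COX7B2, NDUFA8, NDUFB10 and SDHB, hold no searched motif. Capitals mark letters of the motif CCGGAAG (bound by GABPA, also called NRF2, and its relatives) or its reverse complement CTTCCGG, and of the SP1 letters GGGCGGG or CCCGCCC. NDUFB7 (chr19:14572067-14572186, minus strand) and COX6B1 (chr19:35648203-35648322, plus strand) fell in melatonin-treated JJ012, while COX5B (chr2:97645942-97646061, plus strand) and COX8A (chr11:63974500-63974619, plus strand) did not pass the threshold there.
NDUFB7: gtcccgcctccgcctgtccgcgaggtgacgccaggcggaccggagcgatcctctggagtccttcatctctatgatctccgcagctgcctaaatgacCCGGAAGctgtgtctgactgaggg
COX6B1: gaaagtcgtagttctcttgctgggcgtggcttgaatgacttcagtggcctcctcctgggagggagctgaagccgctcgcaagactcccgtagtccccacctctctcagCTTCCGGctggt
COX5B: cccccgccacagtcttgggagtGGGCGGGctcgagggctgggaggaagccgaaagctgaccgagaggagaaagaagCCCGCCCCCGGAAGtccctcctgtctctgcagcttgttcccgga
COX8A: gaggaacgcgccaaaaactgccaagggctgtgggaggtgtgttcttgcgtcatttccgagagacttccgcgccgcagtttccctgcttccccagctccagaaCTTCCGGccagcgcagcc

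Among the windows named above, CCGGAAG stands before genes that fell and before genes that did not, and NDUFB10, without it, fell as well. The printed windows were picked for holding these letters, so they cannot show whether the letters go with the fall. Over the whole windows and both strands, CCGGAAG stood in 20 of the 69 matched genes and in 10.7% of all 27305 promoters, the NRF1 letters GCGCATGCG in 14.5% against 2.1%, and the YY1 letters AAGATGGCG in 11.6% against 1.85%. The letters AAGGTCA, bound by estrogen-related receptors, stood in 13.0% of the matched genes and in 3.97% of all promoters, and GGGCGGG in 27.5% and 32.9%. Among the 15843 protein-coding promoters, CCGGAAG stood in 14.2%, GCGCATGCG in 2.76% and AAGATGGCG in 2.74%. AAGGTCA stood in 3.13% of these and GGGCGGG in 44.4%, above its share in the matched genes. In COX5B the SP1 and GABPA letters adjoin without sharing a base. Of the 18 matched genes that fell in JJ012, 8 held CCGGAAG, 1 held GCGCATGCG, 1 held AAGATGGCG and 0 held AAGGTCA. Of the 48 matched genes that were tested and did not fall there, 12 held CCGGAAG, 9 held GCGCATGCG, 7 held AAGATGGCG and 9 held AAGGTCA. These matches describe letters in a window and were not tested against the changes in RNA.

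In JJ012, most respiratory chain RNAs were lower after melatonin. A gene was tested where it reached 1 FPKM in at least 1 of the 2 libraries, and it was said to rise or fall where the log2 ratio of FPKM + 1 was at least 0.58 in size, the fold threshold of the study. Of 82 genes tested, 21 fell and 1, COX7A1, rose, while over all 15794 genes tested 18.6% fell and 19.6% rose. Among the 11534 protein-coding genes, 16.1% fell and 17.8% rose. The share that fell relative to all genes depended on the scaling, since under TPM 10 of the 82 fell and 2 rose, against 15.7% and 34.6% of all genes, and with the length trend described below removed 15 fell. The median log2 change of the 82 genes was -0.43, against 0.01 for all genes tested, and 71 of them (86.6%) lay below 0, against 49.4% of all genes. The 95% counting interval of the ratio of counts per library total (CPM) lay wholly below 1 for 67 of the 82 genes and wholly above 1 for 4, while 35.2% of all genes lay below and 36.9% above. These intervals cover counting error only, and in bulk RNA fewer cells of a kind and less RNA per cell cannot be told apart.

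**Figure D1:**
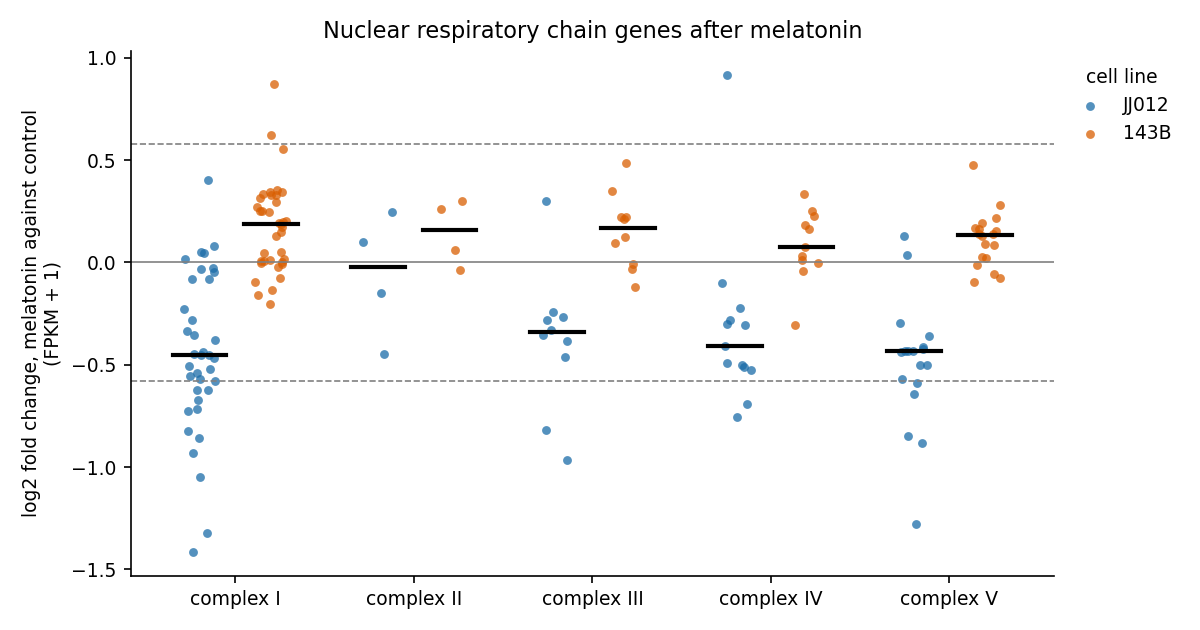
The log2 fold change (melatonin against control, FPKM + 1) of each tested gene is plotted by complex, with JJ012 in blue and 143B in orange, medians as black bars and the threshold of 0.58 as dashed lines. In JJ012 the medians lie between -0.45 and -0.34 for complexes I, III, IV and V and at -0.02 for complex II, and in 143B all 5 lie above 0.

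The lowest changes in JJ012 were those of a pair of complex I accessory subunits. NDUFB7 (ENSG00000099795, chr19:14566078-14572066 on hg38, minus strand), an accessory subunit of the membrane arm, was at 71.10 FPKM (731 counts) in the JJ012 control and 26.05 FPKM (225 counts) after melatonin, a log2 change of -1.41. Its CPM was 0.366 times that of the control (95% interval 0.314 to 0.426). In 143B, NDUFB7 was at 21.41 FPKM in the control and 24.72 FPKM after melatonin, so that the treated JJ012 library came down to the level of the 143B libraries. NDUFC2 (chr11:78068297-78079862, minus strand), another membrane arm subunit, was at 12.79 and 4.52 FPKM in JJ012 and at 2.46 and 2.78 FPKM in 143B. Its log2 change in JJ012 was -1.32, with a CPM ratio of 0.353 (0.296 to 0.420), and the readthrough gene NDUFC2-KCTD14 that overlaps it had only 10 counts and 1 count. NDUFA1 (chrX:119871832-119876662, plus strand), a small membrane subunit needed for assembly, followed ATP5IF1 of complex V in order of change and was at 212.09 FPKM in the JJ012 control, 101.96 FPKM after melatonin, 51.12 FPKM in the 143B control and 46.5 FPKM after melatonin. The JJ012 change was -1.05, and both JJ012 values stayed above both 143B values.

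Within complex I, the genes that fell in JJ012 were accessory subunits. Of the 30 accessory subunits 12 fell, beside 18.6% of all genes tested, with a median log2 change of -0.53. Of the 7 core subunits, which bind flavin and iron-sulfur clusters, none passed the threshold, with a median of -0.08. Under TPM 6 of the 30 and 0 of the 7 fell, beside 15.7% of all genes, and the difference between the classes was not tested. The NDUFB subunits, all part of the membrane arm, had the lowest median among the groups with more than 2 genes, at -0.62. Of these 11 genes 6 fell and all lay below 0, beside 18.6% and 49.4% of all genes. NDUFB10 was at 80.75 FPKM and 41.81 FPKM after melatonin (-0.93), and NDUFB8 at 10.91 and 5.58 FPKM (-0.86), although NDUFB8 shares its place with HIF1AN on the other strand. Among the core subunits, NDUFS1, the largest iron-sulfur protein of the complex, was at 7.48 and 7.79 FPKM. NDUFV1, which carries the NADH site, was the core subunit with the second lowest change, at 27.98 and 20.38 FPKM (-0.44). NDUFS3 was the lowest of the 7 at -0.50, and NDUFS7, NDUFS8 and NDUFV2 were at 0.05, -0.08 and -0.03. NDUFA4, counted here with complex I by its name and now known as a subunit of complex IV, was at 31.45 and 18.76 FPKM (-0.72).

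None of the 4 genes of complex II passed the threshold in JJ012. SDHA, the flavoprotein, was at 5.03 FPKM in the control and 4.44 FPKM after melatonin, and SDHB, the iron-sulfur protein, at 31.99 and 34.36 FPKM. The membrane anchors went apart without passing the threshold, SDHC from 29.93 to 21.72 FPKM (-0.45) and SDHD from 43.96 to 52.29 FPKM (0.25). The CPM interval of SDHD lay above 1 (1.12 to 1.26), and those of SDHC (0.658 to 0.800) and SDHA (0.795 to 0.981) below 1. With 4 genes, a difference from the other complexes was not tested. The summed FPKM of the 4 genes after melatonin was 1.02 times that of the control.

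In complex III, 2 of 10 genes fell in JJ012, near the 18.6% of all genes that fell, and they were the small subunits UQCR11 and UQCRQ. UQCR11 (chr19:1597169-1605473, minus strand) was at 24.42 FPKM in the control and 12.00 FPKM after melatonin (-0.97), and at 6.8 and 8.1 FPKM in 143B. UQCRQ, which lies beside the quinone-binding cytochrome b, was at 42.77 and 23.77 FPKM in JJ012 (-0.82) and at 4.06 and 6.09 FPKM in 143B (0.49). UQCRQ overlaps GDF9 on the other strand, and no strand setting of the counting is given in the sources used here. The cofactor-bearing CYC1 (cytochrome c1) and UQCRFS1 (the Rieske iron-sulfur protein) were below the control in JJ012 without passing the threshold, at -0.46 and -0.24. UQCRC2, a core structural protein, was the highest gene of the complex at 0.30, from 27.37 to 33.91 FPKM, with a CPM interval of 1.17 to 1.31.

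In complex IV, COX6B1 and COX4I1 fell in JJ012, 2 of 13 genes beside 18.6% of all genes tested, and neither passed the threshold under TPM. COX6B1, a subunit at the dimer interface, was at 112.47 FPKM in the control and 66.11 FPKM after melatonin (-0.76), against 24.55 and 27.96 FPKM in 143B. COX4I1, the ubiquitous form of the regulatory subunit 4, was at 48.65 and 29.70 FPKM in JJ012 (-0.69) and was also the lowest of all 80 genes tested in 143B, at 38.63 and 31.06 FPKM (-0.31). A list of 17 subunits, made of those known to carry cofactors or catalytic sites together with COX4I1 and COX5A, which carry none, held 1 gene that fell in JJ012, COX4I1 itself. Outside that list 20 of 65 tested genes fell, beside 18.6% of all genes. With the length trend removed the counts were 2 of 17 and 13 of 65, beside 16.4% of all genes. The partner COX5A was at 50.15 and 42.88 FPKM in JJ012 and at 48.55 and 47.10 FPKM in 143B, values that lay close together in all 4 libraries. COX7A2L, known for its part in joining complexes III and IV, was at 19.91 and 18.50 FPKM in JJ012.

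Most tissue-restricted isoforms of cytochrome c oxidase had few or no counts, with COX6B2 in JJ012 as the exception, and the lone rise among the 82 genes came from 1 of them. COX7A1, the heart and muscle form of subunit 7A, had 1 count in the JJ012 control and 10 counts after melatonin (0.09 and 1.06 FPKM). The CPM ratio of COX7A1 in JJ012 was 11.9 with a counting interval of 1.69 to 517, and the gene passed the filter only through its treated library. In 143B it had 0 and 5 counts and stayed below 1 FPKM. With the control set at the floor of 3 counts its CPM ratio there would be 1.54. That figure takes no account of counting error, so a rise in 143B cannot be read from it. COX6B2, the testis form of subunit 6B, was at 3.33 and 2.26 FPKM in JJ012 (-0.41) and at 0.12 and 0.14 FPKM in 143B. UQCRHL, a copy of UQCRH on which reads of UQCRH may be counted, was at 4.51, 3.58, 2.02 and 2.00 FPKM in the JJ012 control, treated JJ012, 143B control and treated 143B. COX4I2, the hypoxic form of subunit 4, COX6A2, COX7B2, COX8C and ATP5MGL had between 0 and 4 counts in each library and were not tested.

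In complex V, 5 of 18 genes fell in JJ012, beside 18.6% of all genes tested. ATP5IF1 (chr1:28236109-28246906, plus strand) encodes the inhibitor that stops ATP synthase from running backwards, and it was at 24.93 FPKM in the control and 9.69 FPKM after melatonin (-1.28), with a CPM ratio of 0.389 (0.343 to 0.439). In 143B it was at 9.87 and 9.16 FPKM, so that melatonin-treated JJ012 and both 143B libraries lay close to each other. An unnamed antisense gene at the locus of ATP5IF1 had 95 and 31 counts in JJ012. The small membrane subunit ATP5ME was at 43.44 and 23.13 FPKM (-0.88), and ATP5F1E, the epsilon subunit of the central stalk, at 23.81 and 12.78 FPKM (-0.85). In the catalytic head, the beta subunit ATP5F1B was at 211.51 and 231.28 FPKM (0.13), and the alpha subunit ATP5F1A at 23.36 and 17.00 FPKM (-0.44), near the median of the complex. The CPM interval of ATP5F1B in JJ012 was 1.06 to 1.13.

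**Figure D2:**
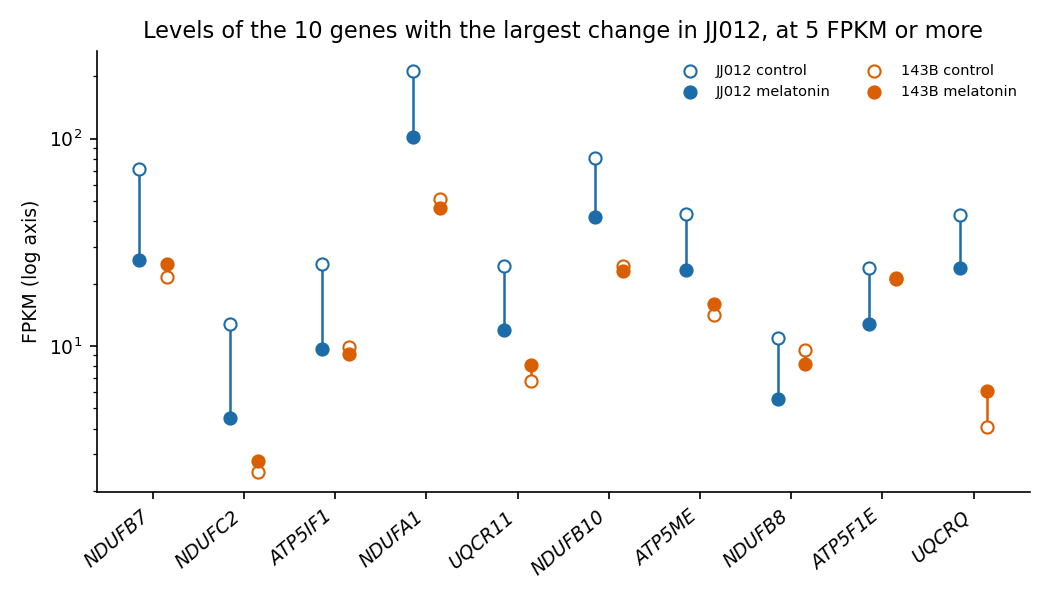
FPKM (log axis) of the 10 genes with the largest change in JJ012 among those at 5 FPKM or more, with open circles for the control library and filled circles for the melatonin library, JJ012 in blue and 143B in orange. All 10 were lower in treated JJ012, from a log2 change of -1.41 for NDUFB7 to -0.82 for UQCRQ, and in 143B each filled circle lies near its open one, with UQCRQ the widest apart at 0.49.

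The sum of FPKM over the 87 genes was 3321.65 in the JJ012 control and 2425.69 after melatonin, a ratio of 0.730. By complex the ratio was 0.628 for complex I, 0.777 for complex III, 0.731 for complex IV and 0.801 for complex V. In summed FPKM complex I thus lost the most, and complex II, named above, did not fall. As a share of all FPKM in JJ012, complex I went from 0.381% to 0.289% and complex IV from 0.316% to 0.280%. Complex III moved less, from 0.169% to 0.159%, as did complex V, from 0.278% to 0.270%, while complex II rose from 0.0395% to 0.0487%. In 143B the sum was 1447.86 FPKM in the control and 1548.35 FPKM after melatonin, a ratio of 1.07. The genes made up 1.18% and 1.05% of all FPKM in JJ012 and 0.672% and 0.691% in 143B. The order of the 78 genes at 1 FPKM or more in all libraries was largely kept, with a Spearman correlation across genes of 0.971 between the JJ012 libraries and 0.989 between the 143B libraries. FPKM here rests on the exonic size in the table, which for 41 of the 87 genes was over 3 times the median coding transcript of GENCODE 29, so that levels of such genes are understated relative to the others.

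In 143B, melatonin left the respiratory chain RNAs close to the control. Of 80 genes tested, 2 rose and 0 fell, where 6.09% of all 14135 genes tested rose and 6.65% fell. For protein-coding genes the shares were 3.48% and 2.6%. The median log2 change was 0.14, against 0.03 for all genes, with 19 of the 80 genes below 0. The CPM interval lay above 1 for 38 genes and below 1 for 3, beside 28.4% and 23.5% of all genes.

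The 2 genes that rose in 143B encode accessory subunits of complex I. NDUFA2 (ENSG00000131495, chr5:140638740-140647771, minus strand) was at 5.29 FPKM (124 counts) in the 143B control and 10.51 FPKM (266 counts) after melatonin, a log2 change of 0.87 and a CPM ratio of 1.99 (1.6 to 2.48). In JJ012 the same gene fell, from 41.51 to 26.60 FPKM (-0.62), a call lost under TPM (-0.36), TMM (-0.55) and with the length trend removed (-0.31). NDUFA2 overlaps IK and TMCO6 on the other strand, and no strand setting of the counting is given in the sources used here. IK went from 837 to 1178 counts in 143B and from 3145 to 2065 counts in JJ012. TMCO6 went from 70 to 111 counts in 143B and from 175 to 200 counts in JJ012. Whether reads of the 2 strands are mixed in the counts of NDUFA2 was not tested. NDUFA6 was at 10.58 and 16.86 FPKM in 143B (0.63) and at 36.97 and 31.48 FPKM in JJ012 (-0.23). NDUFB6 came next with 8.26 and 12.61 FPKM in 143B (0.56), under the threshold, and fell in JJ012 from 16.63 to 10.46 FPKM (-0.62). The other genes with the largest values in 143B were UQCRQ at 0.49, ATP5MF at 0.47, and NDUFV1, NDUFB1, UQCR10 and NDUFA13, each at 0.35, none past the threshold.

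The 2 melatonin comparisons share no library and differed in sign for most genes, although in 143B only 2 of the 80 genes passed the threshold. The signs moved with the scaling. Under TPM 28 of the 80 genes lay below 0 in 143B in place of 19, and 61 of 82 in JJ012 in place of 71. Of 80 genes tested in both lines, 76 (95%) had a lower log2 change in JJ012 than in 143B, while 48.5% of 11822 genes tested in both lines did. The difference was -0.58 or lower for 36 genes (18.5% of all genes) and 0.58 or higher for 0 genes (21.2% of all genes), with a median of -0.53 against 0.03 for all genes. There were 54 genes below 0 in JJ012 and above 0 in 143B, which is 67.5% of the 80, beside 25.1% of all genes. The widest differences were those of NDUFB7 (-1.61), NDUFA2 (-1.49), NDUFC2 (-1.45), UQCRQ (-1.31), UQCR11 (-1.19) and ATP5IF1 (-1.18). Complex II (median difference -0.16) and the complex I core (-0.15) lay nearer to 0 than the complex I accessory subunits (-0.74). With 1 library per condition the difference between lines was not tested.

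**Figure D3:**
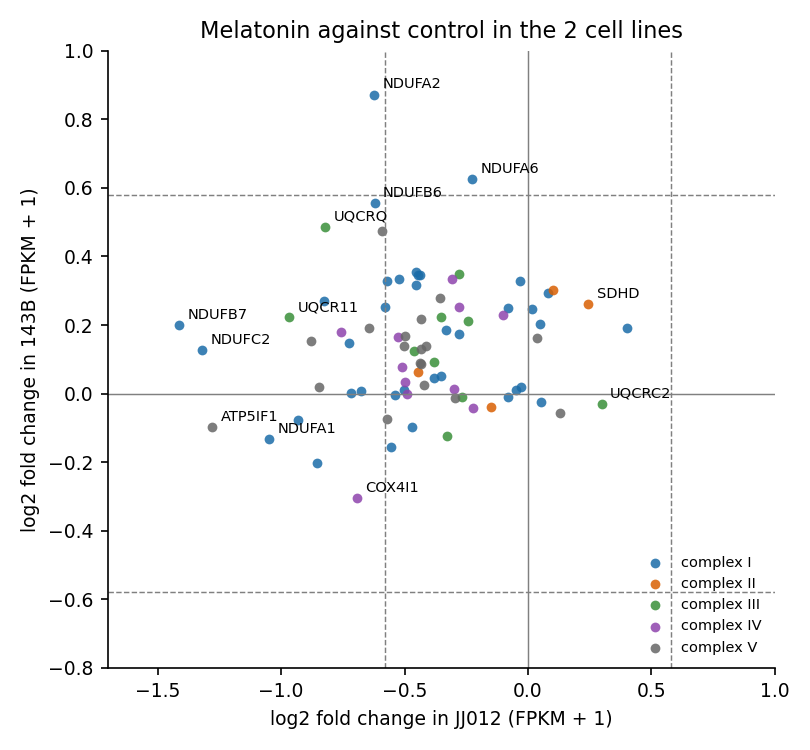
The log2 fold change of each of the 80 genes tested in both lines is plotted, with JJ012 on the x axis and 143B on the y axis, points coloured by complex and dashed lines at the threshold of 0.58. Most points lie left of 0 and above 0, 54 of the 80, and NDUFA2 alone passes the threshold on both axes.

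When both lines were fitted together on the counts (edgeR's quasi-likelihood test, cell line and treatment as terms, 1 residual degree of freedom), each line stood as 1 replicate of melatonin. None of the 81 genes that entered the fit passed a false discovery rate of 0.05, where 12 genes of 19301 (0.0622%) were higher and 56 (0.29%) lower. An unadjusted p under 0.05 was found for 0 of the 81 and for 1139 of the 19301 genes. DESeq2, fitted without the filter on low counts, called 0 of 86 and gave no adjusted p for 6 of these. Of all 38505 genes it called 7 and gave no adjusted p for 24573. The lowest p of the edgeR fit was that of ATP5IF1, with a log2 change of -0.74 (unadjusted p = 0.058, adjusted p = 0.88). The fitted log2 change was negative for 64 of the 81 genes, with a median of -0.16, against a median of 0.01 for all genes in the edgeR fit.

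The starting levels of the lines differed widely. In the control libraries 63 of 81 genes were higher and 3 lower in JJ012 than in 143B, where 41.3% of 16929 genes were higher and 27.4% lower. Among protein-coding genes, 39.6% were higher and 25.1% lower. The median log2 difference was 0.96, against 0.29 for all genes, and the summed FPKM in the JJ012 control was 2.29 times that of the 143B control. The counts depended on the scaling, since under TPM 49 of the 81 were higher and 7 lower, beside 36.2% and 37.2% of all genes. Under TMM 49 were higher and 6 lower, beside 33.6% and 34.2%. The comparison of the controls uses the same control libraries as those above, so that it gives no independent view of the response to melatonin.

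UQCRQ differed most between the controls, with 42.77 FPKM in JJ012 and 4.06 FPKM in 143B (3.11), followed by NDUFA2 with 41.51 and 5.29 FPKM (2.76). COX5B, the zinc-binding subunit of cytochrome c oxidase, was at 149.46 and 25.50 FPKM (2.51), ATP5PF, coupling factor 6 of the stator stalk, at 52.47 and 8.96 FPKM (2.42), and NDUFB3 at 20.14 and 3.53 FPKM (2.22). All 5 stood well above the median difference of the group. The 3 genes lower in JJ012 were NDUFA10 (5.57 and 9.27 FPKM), COX7A2L (19.91 and 35.59 FPKM) and the stator subunit ATP5PB (32.95 and 61.71 FPKM). SDHA, the catalytic subunit of complex II, was at 5.03 FPKM in JJ012 and 7.4 FPKM in 143B, below the threshold.

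**Figure D4:**
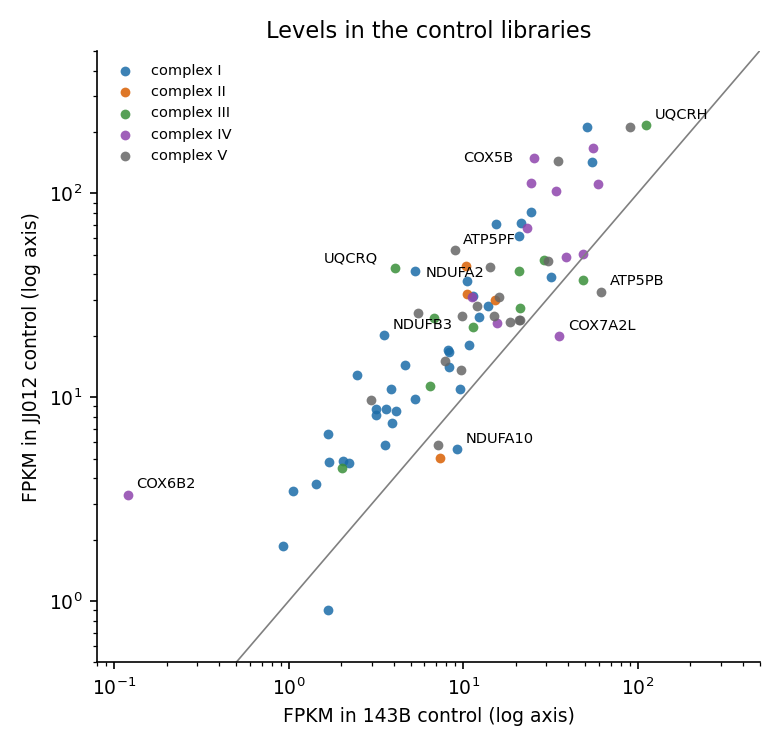
FPKM in the JJ012 control against FPKM in the 143B control (both log axes) for the genes tested, coloured by complex, with the diagonal marking equal levels. Most points lie above the diagonal, 74 of the 81 genes, and UQCRQ and NDUFA2 stand farthest above it among the genes with at least 1 FPKM in both lines.

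The change in JJ012 moved with the length of the gene. Over all protein-coding genes tested, the log2 change rose with exonic size (Spearman 0.399 across 11534 genes), and over the 82 respiratory genes the value was 0.313. A running median of all genes over exonic size put the respiratory genes at -0.21 by length alone, and less that trend their median was -0.29, with 15 genes lower and 2 higher. After the same step, 16.4% of all genes were lower and 18.1% higher. The 28 shortest genes had a median of -0.50 and the 27 longest -0.35, while the median less the trend was -0.19 in the shortest and -0.40 in the longest. What part this trend had in the decrease was not tested further. The contrast within complex I narrowed with the trend removed, since the 7 core genes then had a median of -0.30 and the 30 accessory genes -0.31.

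**Figure D5:**
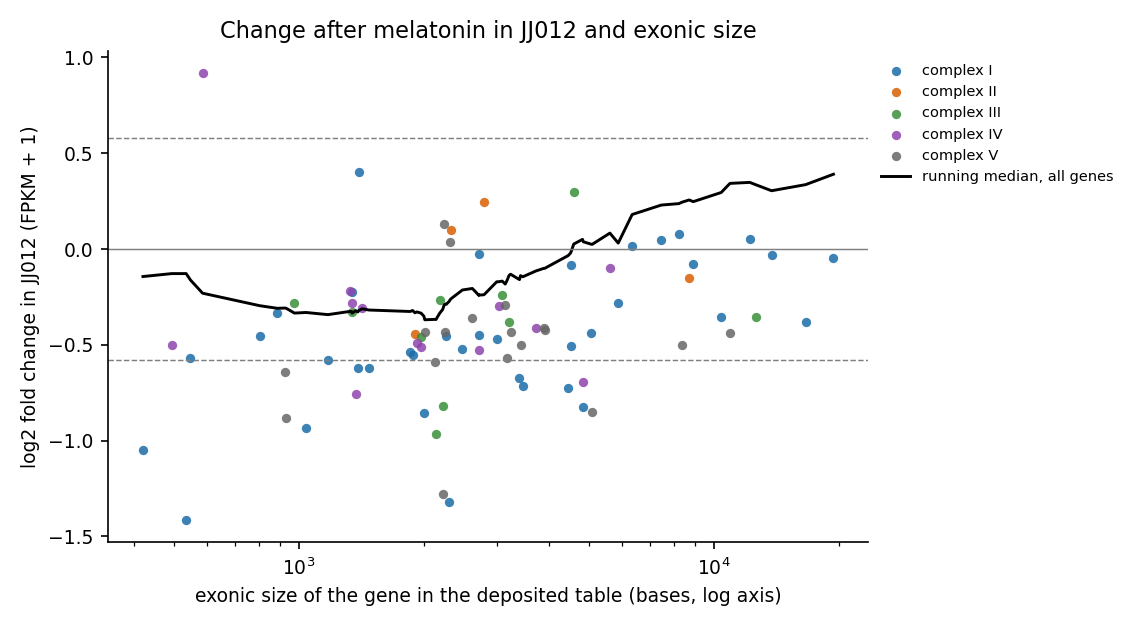
The log2 fold change in JJ012 of the 82 genes tested is plotted against exonic size (bases, log axis), coloured by complex, with the running median of all genes as a black line and dashed lines at the threshold of 0.58. The line runs below 0 for short genes and above 0 for the longest, and most respiratory genes lie below it, with a median of -0.29 relative to it.

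Scaling moved the medians of all genes and of the respiratory genes together. Under TPM the median of all genes in JJ012 moved from 0.01 to 0.27 and the share of higher calls among all calls from 51.4% to 68.8%, and the respiratory genes lay 0.45 below that median, where they had lain 0.44 below it. Between the controls the share of higher calls moved from 60.1% to 49.3% under TPM, and the respiratory genes lay 0.73 above the median in place of 0.68. The medians of complex II, of the complex I core and of the list of 17 subunits in JJ012 turned above 0 under TPM, at 0.23, 0.19 and 0.09. Complexes I, III, IV and V stayed below 0 under TPM, TMM and DESeq2 size factors.

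The mitochondrially encoded subunits of the same complexes were mostly lower after melatonin in JJ012 and mostly higher in 143B. Of their 13 mRNAs, 10 fell in JJ012 (median -1.15), beside 18.6% of all genes, and 12 rose in 143B (median 0.77), beside 6.09%. Their summed FPKM was 47903.5 in the JJ012 control, 23744.5 after melatonin, 8646 in the 143B control and 14721 after melatonin, or 14.4, 9.79, 5.97 and 9.51 times the sum of the nuclear subunits. MT-CO3, a core subunit of complex IV, was at 6616.90 and 2177.98 FPKM in JJ012 (-1.60) and at 927.00 and 1466.87 FPKM in 143B (0.66). MT-ND6 of complex I was at 2197.60 and 928.33 FPKM in JJ012 (-1.24) and at 223.69 and 441.55 FPKM in 143B (0.98). The share of counts from mitochondria, given above, moved with these levels, and its part was not tested.

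The genes whose products build the complexes went both ways in JJ012. Of 55 assembly factors, 6 rose and 6 fell in JJ012 (median -0.03), beside 19.6% and 18.6% of all genes. Under TPM 11 rose and 2 fell (median 0.23), beside 34.6% and 15.7% of all genes. In 143B, 7 rose and 0 fell of 53 (median 0.22), beside 6.09% and 6.65% of all genes. NDUFAF4, a complex I assembly factor, rose in both lines, reaching 13.54 FPKM from 5.51 FPKM in JJ012 (1.16) and 3.82 FPKM from 1.9 FPKM in 143B (0.73). PET117, which acts in complex IV assembly, also rose in both, from 1.49 to 3.18 FPKM and from 0.66 to 1.82 FPKM, with 12 to 59 counts per library. COX10, the heme O synthase, rose in JJ012 from 4.66 to 11.34 FPKM (1.12), while TMEM70, which helps assemble complex V, fell from 20.12 to 10.55 FPKM (-0.87). PET100 fell in JJ012 from 11.08 to 5.68 FPKM (-0.85), and COA3 rose in 143B from 1.5 to 4.01 FPKM (1.00).

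Several regulators of respiratory gene expression rose in JJ012. Of 16 tested, 8 rose and 0 fell in JJ012 (median 0.48), beside 19.6% and 18.6% of all genes. Under TPM 10 rose, beside 34.6% of all genes. In 143B 0 of 15 passed the threshold, where 6.09% of all genes rose and 6.65% fell. PPARGC1A, the coactivator known for driving mitochondrial biogenesis, was at 0.57 FPKM (120 counts) in the JJ012 control and 3.65 FPKM (641 counts) after melatonin (1.57), and at 0.20 and 0.40 FPKM in 143B. MYC was at 2.86 and 10.20 FPKM in JJ012 (1.54) and at 1.06 and 1.75 FPKM in 143B (0.42). Of the factors whose letters were searched above, the estrogen-related receptor ESRRA rose in JJ012 from 19.65 to 30.6 FPKM (0.61), with 11.59 and 11.85 FPKM in 143B. NRF1, GABPA and YY1 did not pass the threshold, with NRF1 at 3.78 and 3.17 FPKM, GABPA at 12.94 and 15.51 FPKM and YY1 at 23.40 and 30.58 FPKM in JJ012. TWNK, the mitochondrial DNA helicase, rose in JJ012 from 9.83 to 17.90 FPKM (0.80) and POLRMT, the mitochondrial RNA polymerase, from 11.65 to 17.98 FPKM (0.59).

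Few electron carriers and genes of hypoxic remodelling passed the threshold. Of 18 carrier genes tested in JJ012, 1 rose and 2 fell, below the 19.6% and 18.6% of all genes. Under TPM 5 rose and 1 fell, beside 34.6% and 15.7% of all genes. CYCS, cytochrome c, was the one that rose before that scaling, from 35.24 to 59.41 FPKM (0.74), with 11.52 and 15.13 FPKM in 143B. COQ3, an enzyme of coenzyme Q synthesis, fell in JJ012 from 5.10 to 2.57 FPKM (-0.77) and rose in 143B from 1.09 to 2.41 FPKM (0.71). Of 6 hypoxic remodelling genes tested, BNIP3, a receptor for mitophagy, fell in JJ012 from 332.14 to 149.40 FPKM (-1.15), and PDK1, which holds pyruvate out of the citric acid cycle, fell in 143B from 28.13 to 13.41 FPKM (-1.02). Of 13 genes for inner membrane carriers and cristae organisation tested in each line, 2 rose in JJ012 and 1 rose in 143B. These counts stand beside 19.6% of all genes in JJ012 and 6.09% in 143B. The 2 in JJ012 were CHCHD3, from 15.32 to 27.86 FPKM (0.82), and OPA1, from 11.29 to 18.99 FPKM (0.70). The 1 in 143B was CHCHD6 (0.62).

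Ribosomal protein genes offer a comparison of short, abundant transcripts. Of 78 cytosolic ribosomal protein genes tested in JJ012, 11 fell and 1 rose (median -0.40), where 18.6% and 19.6% of all genes did. Under TPM 1 fell and 2 rose (median -0.13), and under TMM 4 fell, so that the count rests on the scaling. In 143B 0 of 79 passed the threshold (median -0.04), where 6.09% of all genes rose and 6.65% fell. Between the controls the groups stood opposite, since 53 of 79 cytosolic ribosomal protein genes were lower in JJ012 (median -0.91) where the respiratory genes were mostly higher. Of 80 mitochondrial ribosomal protein genes tested in JJ012, 10 fell and 3 rose (median -0.11), beside the same 18.6% and 19.6%. Under TPM 6 fell and 11 rose (median 0.15), beside 15.7% and 34.6% of all genes. In 143B 2 of 81 rose and 1 fell (median 0.21), beside 6.09% and 6.65%. Between the controls 43 of 81 mitochondrial ribosomal protein genes were higher and 4 lower in JJ012 (median 0.74). Over all genes 41.3% were higher and 27.4% lower there. In JJ012, 94.9% of the cytosolic and 62.5% of the mitochondrial ribosomal protein genes lay below 0, beside 86.6% of the respiratory genes. Their CPM intervals lay wholly below 1 for 93.6% and 45%, beside 81.7%. The log2 change was lower in JJ012 than in 143B for 94.9% and 81.2%, beside 95% of the respiratory genes. The shares below 0 in JJ012 and above 0 in 143B were 28.2% and 47.5%, beside 67.5%. The difference between lines had a median of -0.33 for the cytosolic and -0.38 for the mitochondrial ribosomal protein genes, against -0.53 for the respiratory genes. These gaps were not tested.

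How far the counts can be told apart from neighbours differed among the genes. Of the 87 genes, 53 overlap another gene of the table, 34 of them on the same strand and 36 on the other, and 48 have a listed pseudogene. The 104 pseudogene symbols left out by the rule held between 0.102% and 0.491% of the counts of the 87 genes. NDUFB7 and NDUFA1, with 2 of the largest falls, overlap no gene of the table and have no listed pseudogene.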

How the data were processed

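RNA of the 4 libraries was extracted with TRIzol and sequenced as paired ends after poly(A) selection, per the labels. The deposited counts are whole numbers for each gene and were not normalized by the authors. The deposited FPKM are these counts scaled by the table's exonic gene size (in kilobases) and by the library total. The submitters' processing notes name cutadapt 1.9.1, HISAT2 2.2.1, HTSeq 0.6.1, DESeq2 and hg38, with no role given, and the strand setting and annotation release are not given in the sources used here. Columns were matched to samples by cell line, the suffix T was read as treated, and 0 columns of values stayed unmatched. Pathway and ontology columns were not used.

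Log2 fold changes were computed from FPKM with a pseudocount of 1 for genes at 1 FPKM or more in at least 1 of the 2 libraries, which understates changes of low genes. Counts were also scaled to the library total (CPM), and CPM ratios have exact (Clopper-Pearson) 95% intervals, and 3 counts correspond to between 0.156 and 0.189 CPM. With 1 library per condition edgeR could only be fitted over both lines together, with TMM, filterByExpr and Benjamini-Hochberg adjustment over all genes, which treats the lines as replicates. Length trends are running medians over 501 genes. Gene types and transcript lengths came from GENCODE 29 and promoters from RefSeq. The named genes are, for each line, the 10 with the largest change at 5 FPKM or more, the 5 with the largest differences between the controls and between the lines, the core and tissue-restricted lists, and of other lists those past the threshold in both lines and the 2 largest per line. COX6B1, NDUFA4, UQCRC2, COX7A2L, NDUFA10, ATP5PB, COX8A, NDUFA8, NRF1, GABPA, YY1 and ESRRA were named after their values were seen. The genes, lists, rules and tests were chosen with earlier results of these data known. The scripts were tested on simulated data. Alternatives were a pseudocount of 0.1, no filter, a filter of 5 FPKM, TPM, TMM, DESeq2 size factors, centring, the length trend, a threshold of 1, leaving out genes with pseudogenes, and for the joint fit no cell line block, no filter and DESeq2. Protein-coding genes alone and levels per coding transcript were added after seeing the data. Python 3.11.15 (numpy 2.4.6, pandas 2.3.3, scipy 1.17.1, matplotlib 3.10.9) and R 4.3.3 (edgeR 4.0.16, DESeq2 1.42.0) were used. The values of 1 gene are not reported here.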

Additional observations from a re-analysis of the deposited data

Results flagged for a closer look

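NDUFA2, an accessory subunit of complex I, was the one gene of the 87 past the threshold in both cell lines and in opposite directions, lower in JJ012 and higher in 143B. Its log2 fold change in JJ012 minus that in 143B was -1.495. With 1 library per condition this difference was not tested, and the JJ012 call of -0.62 was lost under TPM (-0.36), TMM (-0.55) and with the length trend removed (-0.31). NDUFA2 shares its locus with IK and TMCO6 on the other strand.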

How the results depend on the processing

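The medians over all respiratory genes kept their sign in each comparison under the alternatives run, but in JJ012 those of complex II, the complex I core and the list of 17 subunits turned above 0 under TPM (0.23, 0.19 and 0.09), that of complex II also under TMM (0.05), and in 143B that of the complex I core (0.02) turned below 0 under TPM (-0.04) and DESeq2 size factors (-0.02). With TPM, 10 genes fell and 2 rose in JJ012 and the median was -0.18. Between the controls 49 genes were then higher and 7 lower (median 0.72), and the median difference between the lines was -0.25. With TMM the controls had 49 higher and 6 lower genes and a median of 0.64, and the lines differed by -0.47. DESeq2 size factors gave 54 higher and 6 lower genes between the controls and a median of 0.70. Centring on the median gene gave 6 lower genes there and a median of 0.68. With the length trend removed, 2 genes rose in JJ012 (median -0.29) and 1 in 143B. Between the controls 43 were then higher and 7 lower (median 0.64), and the lines differed by -0.38. At a threshold of 1, 4 genes fell and 0 rose in JJ012, 0 rose in 143B, and 38 were higher and 0 lower between the controls. A pseudocount of 0.1 let 2 genes rise in JJ012 and a filter of 5 FPKM 0, since COX7A1 then was not tested. Without the genes that have listed pseudogenes, 11 of 34 fell in JJ012 and 28 of 33 were higher between the controls. No share of all genes is given at the threshold of 1 or without these genes, so these counts show only how the calls moved. Of the 40 named genes tested in JJ012, TPM took 5 below the threshold, TMM 3 and the length trend 6. The cause of these moves was not tested, apart from the smaller numbers of genes where genes were left out.

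No paired analysis was possible within a cell line because each condition has 1 library. In the fit of both lines, leaving out the cell line block called 0 of all 19301 genes. Its 0 calls among the respiratory genes were therefore fixed and tell nothing about them. The fit with no filter on low counts called 69 of 38505 genes and 0 of the 86 respiratory genes in it. With 1 library per condition no replicate could be left out. Depth limits the isoforms with few counts, where 3 counts is the floor.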
